A study of Mus musculus with 12 samples.

Results

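The 44 genes described here are interferon effectors, genes that interferons induce and whose products act on viruses, on other intracellular microbes, or on the protein and nucleotide handling of the cell itself. They were taken by name from both raw count tables, as interferon-induced effectors that belong to none of the Oas, Gbp, sensor, Irf, Stat and class I gene groups. All 44 were listed at both days, among 28451 gene names at day 1 and 30813 at day 14. The rule itself reads names and no measured value, but the list was drawn up with earlier results of these data known. A filter on low counts passed 43 of them in every fit. The exception was Epsti1, a gene of epithelial to stromal interaction, with 1 count over the KO libraries and 4 over the WT libraries at day 1, and 20 over the KO libraries and 15 over the WT libraries at day 14.

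RNA came from primary vascular smooth muscle cells of the mouse aorta in 4 groups of 3 libraries. The groups were NR4A3 knockout (KO) cells at day 1, wild type (WT) cells at day 1, KO cells at day 14 and WT cells at day 14. NR4A3 is an orphan nuclear receptor of the NR4A family, and the design asks how its loss changes transcription in medium that favours mineral deposition. The protocols give DMEM/F12 with serum and 10 mM beta-glycerophosphate (beta-GP), a phosphate donor, for every group, whereas the treatment label reads beta-GP for KO and none for WT. Genotype and whatever that label stands for cannot be told apart. The labels do not name the deleted part of the gene, nor whether replicates came from different animals or dishes, so every p-value here speaks of the scatter among libraries, possibly technical alone. Each day has its own table, so day and table cannot be told apart either. In RNA from whole cultures, fewer cells that express a gene and less RNA per cell cannot be told apart.

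Interferons alpha and beta bind a receptor made of IFNAR1 and IFNAR2, and the kinases JAK1 and TYK2 on its inner side activate transcription factors of the STAT family. With IRF9 these bind the interferon-stimulated response element (ISRE) near the start of many effector genes. Interferon gamma acts through IFNGR1 and IFNGR2, JAK1 and JAK2, and STAT proteins that bind the gamma-activated site (GAS). Vessel wall smooth muscle cells carry both kinds of receptor.

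The promoters below are shown because the ISRE can be seen in them, and because these genes went different ways at day 14. RefSeq promoter sequences of the build GRCm38.p6 were found for 34 of the 44 members, from 250 bases before to 50 bases after the start. The searched ISRE core was GAAANNGAAA, which reads TTTCNNTTTC on the other strand. At least 1 core stood in 12 of the 34 member genes. Counted by promoter, it stood in 13 of 39 member promoters, and in 3.44% of all 32851 promoters of that length. The searched GAS core was TTCNNNGAA, the same on both strands, and stood in 6 of the 34 member genes. Counted by promoter, it stood in 6 of 39 member promoters, against 8.3% of all promoters. A GAS core overlapped an ISRE core in Bst2 alone among the members. Each sequence holds the 160 bases before the start in the direction of the gene, with the ISRE cores in capitals, and overlapping cores run together.
Isg15 (chr4:156200819-156200978, minus strand): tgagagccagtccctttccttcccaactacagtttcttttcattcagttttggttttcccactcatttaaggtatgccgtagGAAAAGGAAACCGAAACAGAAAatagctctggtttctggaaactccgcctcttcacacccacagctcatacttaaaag
Ifit1 (chr19:34640729-34640888, plus strand): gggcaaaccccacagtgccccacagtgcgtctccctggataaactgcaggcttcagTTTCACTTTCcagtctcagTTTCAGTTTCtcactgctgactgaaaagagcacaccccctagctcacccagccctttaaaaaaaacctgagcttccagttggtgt
Ifit3 (chr19:34583369-34583528, plus strand): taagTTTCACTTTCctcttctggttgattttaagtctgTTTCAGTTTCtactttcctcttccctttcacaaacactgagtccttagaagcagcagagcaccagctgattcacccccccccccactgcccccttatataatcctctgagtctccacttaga
Rsad2 (chr12:26456453-26456612, minus strand): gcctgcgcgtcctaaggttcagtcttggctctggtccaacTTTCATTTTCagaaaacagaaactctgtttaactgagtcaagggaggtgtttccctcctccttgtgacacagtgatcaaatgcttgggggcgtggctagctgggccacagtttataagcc
Ddx60 (chr8:61927927-61928086, plus strand): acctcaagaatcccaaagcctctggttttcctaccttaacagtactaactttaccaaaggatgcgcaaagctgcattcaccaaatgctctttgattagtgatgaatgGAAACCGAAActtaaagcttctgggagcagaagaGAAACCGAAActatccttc
Bst2 (chr8:71537473-71537632, minus strand): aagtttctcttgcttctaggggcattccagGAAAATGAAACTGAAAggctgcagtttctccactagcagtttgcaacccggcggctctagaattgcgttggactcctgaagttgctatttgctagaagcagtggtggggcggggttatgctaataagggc
Igtp (chr11:58199396-58199555, plus strand): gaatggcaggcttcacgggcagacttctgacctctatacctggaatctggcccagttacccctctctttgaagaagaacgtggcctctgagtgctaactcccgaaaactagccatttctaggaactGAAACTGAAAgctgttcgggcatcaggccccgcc
Irgm2 (chr11:58214817-58214976, plus strand): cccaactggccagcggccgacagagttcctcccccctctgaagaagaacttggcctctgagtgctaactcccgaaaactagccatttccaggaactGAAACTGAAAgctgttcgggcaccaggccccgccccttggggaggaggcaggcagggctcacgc
Isg15 held 3 overlapping cores, with first bases at -78, -72 and -66 relative to the start. Ifit1 and Ifit3 held a pair of cores each, read on the other strand. In the neighbours Igtp and Irgm2, a GAS core at -45 and -75 preceded the ISRE core at -34 and -64. Of the members with a promoter, an ISRE core stood in 5 of 16 that were higher in KO at day 14, in 3 of 8 that were lower, and in 4 of 9 without a call. These matches describe letters and are not measured binding sites.

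Nr4a3 was lower in the libraries labelled KO at both days. It stood at 1.89, 2.0 and 2.34 CPM in KO libraries and at 4.61, 4.28 and 3.85 CPM in WT libraries at day 1 (log2 fold change -1.02 ± 0.21 SE, adjusted p = 8.55e-04). At day 14 it stood at 34.3, 60.1 and 54.5 CPM in KO libraries and at 238, 256 and 217 CPM in WT libraries (log2 fold change -2.27 ± 0.19 SE, adjusted p = 2.60e-05). CPM give each gene's counts relative to the scaled library total, and replicates are given in the order 1, 2, 3. Library totals were 17143281 to 20091307 counts for KO and 24929624 to 30105118 for WT at day 1, and 14369933 to 18797157 for KO and 13848199 to 19519654 for WT at day 14. Across 15973 genes, the KO libraries of day 1 stood closest to the WT libraries of day 14, with correlations of log2(CPM + 0.5) from 0.975 to 0.988, against 0.933 to 0.951 between all other groups. Within groups the correlations were 0.979 to 0.997, and the lowest, 0.979 and 0.981, both involved WT replicate 1 of day 14. That library correlated at 0.9877, 0.9875 and 0.9839 with KO replicates 1, 2 and 3 of day 1, above its values with its own group. The likeness of KO at day 1 and WT at day 14 cuts across both genotype and day, and whether cultures or libraries were exchanged between groups was not tested. The labels were kept because Nr4a3 was lower in KO at both days, and every comparison of KO with WT or of the days rests on them. A lower call in KO was shared by 30.2% of all genes at day 1 and 23.7% at day 14, so this gene alone cannot settle the labels. Nr4a3 also averaged 49.6 CPM in KO at day 14, above the 4.25 CPM of WT at day 1. Acta2, smooth muscle actin, averaged 668 ± 33.9 CPM in KO libraries against 276 ± 19.3 CPM in WT libraries at day 1, and 1628 ± 190.2 CPM in KO libraries against 662 ± 108 CPM in WT libraries at day 14 (SD, n = 3 each). Myh11, the smooth muscle myosin heavy chain, averaged at most 0.574 CPM in any group, so this defining contractile marker was nearly absent. The smooth muscle markers Tagln, Myocd and Cnn1 were scarce too, with group means of at most 0.244, 0.486 and 1.93 CPM. Lmod1, another marker on the list, averaged at most 11.3 CPM. Of the 8 smooth muscle markers 5 were tested, with 4 higher and 1 lower in KO at day 1, and 2 higher and 2 lower at day 14. Over all genes, 30.6% were higher and 30.2% lower at day 1, and 22.7% higher and 23.7% lower at day 14. Smtn, smoothelin, was lower in KO at both days, at means of 67.2 CPM in KO against 126 CPM in WT at day 1 and 52.3 CPM in KO against 87.4 CPM in WT at day 14. Myl9, a myosin light chain, averaged 38.9 CPM in KO against 2.16 CPM in WT at day 1 and 15.7 CPM in KO against 41.6 CPM in WT at day 14. The leukocyte antigen Ptprc had 4, 20 and 2 counts in KO libraries and 0 in WT libraries at day 1, and 1 count over the KO and 2 over the WT libraries at day 14. Adgre1, a macrophage marker, had 11 counts over the KO and 1 over the WT libraries at day 1, and 2 over the KO and 0 over the WT libraries at day 14. The summed level of the 7 listed leukocyte markers was 61.0 to 73.1 CPM in KO libraries and 60.2 to 65.7 CPM in WT libraries at day 1, and 50.4 to 54.3 CPM in KO libraries and 64.7 to 95.9 CPM in WT libraries at day 14. Markers within that sum differed. Cd68, found in macrophages and in other cells, averaged 48.6 CPM in KO against 21.9 CPM in WT at day 1 and 30.7 CPM in KO against 57.9 CPM in WT at day 14. It was called higher and then lower, a joint call shared by 13.8% of all genes. Cd14 averaged 16.6 CPM in KO against 41.0 CPM in WT at day 1, called lower, and was not called at day 14. Lyz2 was called higher in KO at day 1, and Csf1r higher in KO at day 14. The part of other cell types in the results below was not tested.

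As a group the interferon effectors were lowest in WT cells at day 1. Their summed level was 1697 to 1955 CPM in KO libraries and 775 to 806 CPM in WT libraries at day 1, and 4282 to 5491 CPM in KO libraries and 3057 to 3799 CPM in WT libraries at day 14. The 4 ranges do not overlap. At day 1, 36 of the 43 tested members were higher and 3 lower in KO than in WT, where 60.8% of all genes were called (30.6% higher, 30.2% lower). A gene is called at an adjusted p below 0.05. At least 2-fold higher were 32 members, against 10.1% of all genes, and at least 2-fold lower were 2 members, against 9.47%. The members' median log2 fold change was 2.01, and that of all genes 0.01. At day 14, 23 members were higher and 10 lower in KO than in WT, where 46.4% of all genes were called (22.7% higher, 23.7% lower). The counts by class of function below are to be read beside these shares of all genes at each day. At least 2-fold higher were 14 members, against 8.68% of all genes, and at least 2-fold lower were 6, against 11.8%. The median was 0.48 for the members and -0.00 for all genes. Without WT replicate 1, which correlated least with its own group, 29 members were higher and 10 lower at day 14. Leaving it out also raised the calls over all genes, from 6918 of 14905 tested to 9209 of 15208. Member calls gained below without this library are to be read beside that rise. When libraries were scaled by their totals alone, the median of all genes moved to 0.14 at day 1 and -0.07 at day 14, and 61.7% of all called genes were higher in KO at day 1 in place of 50.4%. Among the members, 37 were then higher and 3 lower at day 1, and 22 higher and 10 lower at day 14.

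**Figure D1:**
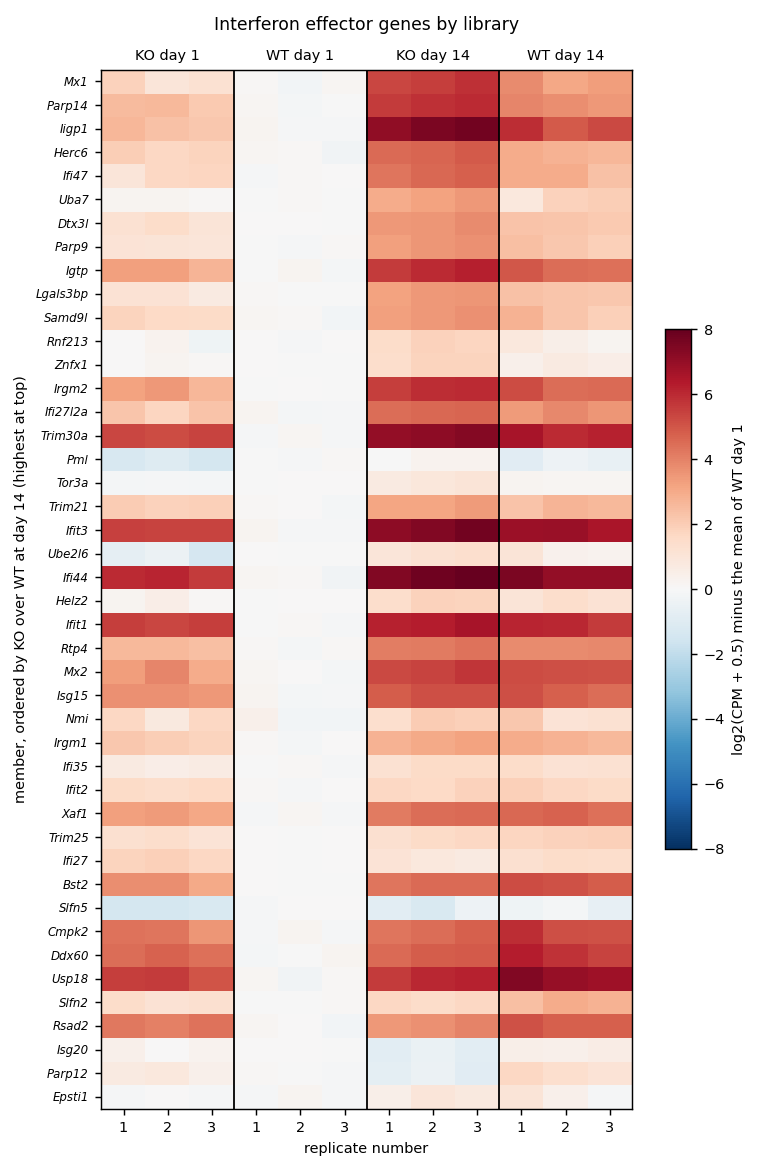
The 44 members in all 12 libraries, as log2(CPM + 0.5) minus the mean of the WT libraries at day 1, with columns grouped as KO day 1, WT day 1, KO day 14 and WT day 14 and rows ordered by the log2 fold change of KO over WT at day 14. WT at day 1 is pale by construction, since its mean is subtracted in every row. The top rows are darkest in KO at day 14, and rows such as Usp18 near the bottom are darkest in WT at day 14.

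Sorted by the group with the highest mean, 30 of the 43 members were highest in KO at day 14, 11 in WT at day 14, 1 in KO at day 1 and 1 in WT at day 1. A member was counted as clearly highest in a group when that group also differed from the next by the test over all 12 libraries. By this measure 24 members were clearly highest in KO at day 14 (11.7% of all genes), 8 in WT at day 14 (1.67%), 1 in KO at day 1 (1.56%) and none in WT at day 1 (10.9%). The full order KO day 14, WT day 14, KO day 1, WT day 1, from high to low, held in 27 members (5.73% of all genes). Another 8 had the order WT day 14, KO day 14, KO day 1, WT day 1 (2.7% of all genes). At the low end, WT at day 1 was lowest in 37 members and clearly so in 33 (8.83% of all genes), KO at day 1 in 4 and clearly in 3 (2.35%), KO at day 14 in 2 and clearly in 2 (11.9%), and WT at day 14 in no member (1.11%). Highest in WT at day 14 were Usp18, Rsad2, Bst2, Cmpk2, Parp12, Trim25, Ddx60 and Slfn2, all clearly, and Ifit2, Isg20 and Xaf1, whose means did not differ clearly from the next group. Ifi27 alone was highest in KO at day 1 and Slfn5 alone in WT at day 1. Of the members highest in KO at day 14, Isg15, Mx2, Ifi35, Irgm1, Pml and Nmi were not separated from the next group.

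**Figure D2:**
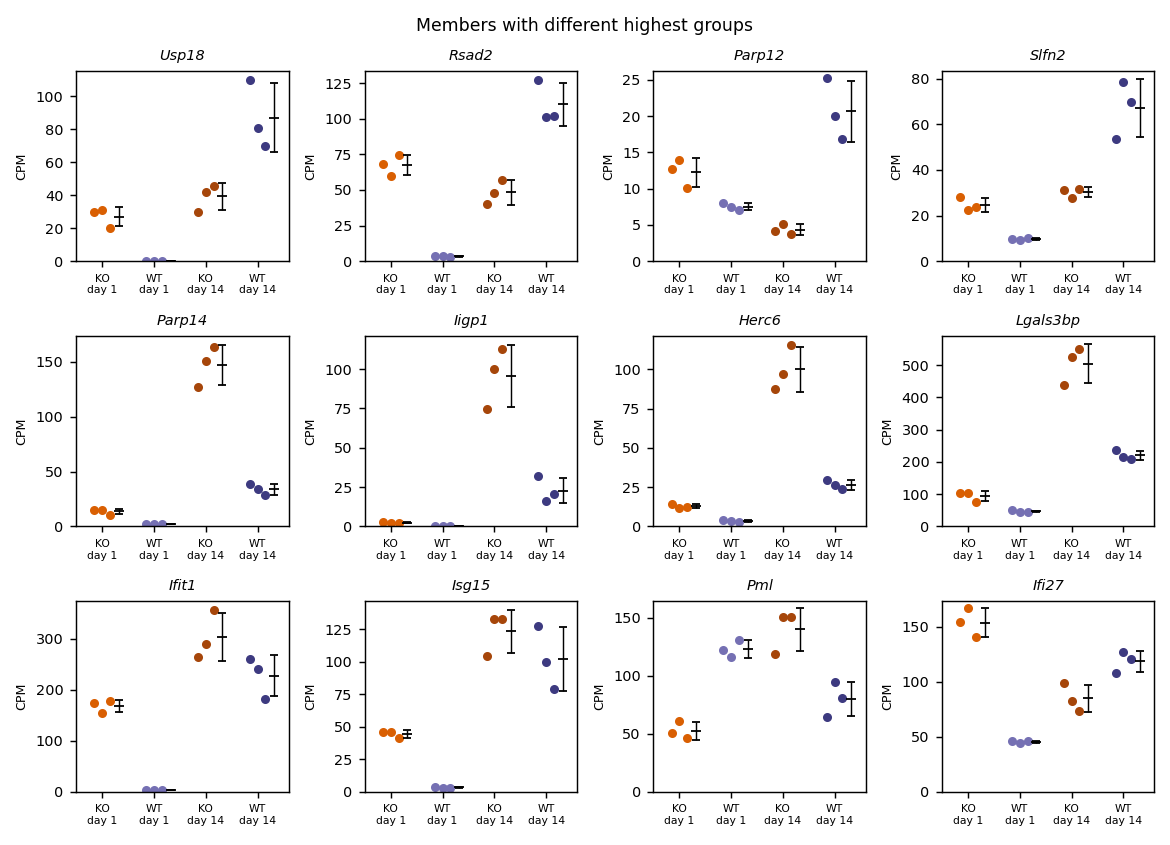
CPM of 12 members in every library, by group from left to right as KO day 1, WT day 1, KO day 14 and WT day 14, with the mean and SD of 3 libraries as a cross bar beside the points. Usp18, Rsad2, Parp12 and Slfn2 are highest in WT at day 14, Parp14, Iigp1, Herc6, Lgals3bp and Ifit1 in KO at day 14, and Ifi27 in KO at day 1, while Isg15 and Pml have KO day 14 values that are not separated from the next group.

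The IFIT proteins bind foreign RNA ends and hold back translation. All 3 members were higher in KO at day 1, while at day 14 only Ifit3 was called, higher in KO. Ifit1 stood at 174, 155 and 177 CPM in KO libraries and 3.19, 3.50 and 3.09 CPM in WT libraries at day 1, and at 264, 289.9 and 356 CPM in KO libraries and 259, 240.2 and 182 CPM in WT libraries at day 14. Its groups do not overlap at either day, with a wide gap at day 1 (log2 fold change 5.69 ± 0.09 SE, adjusted p = 3.26e-13) and a narrow one at day 14 that missed the threshold (log2 fold change 0.41 ± 0.15 SE, adjusted p = 0.0542). It passed with DESeq2 (adjusted p = 0.0380), with no filter (adjusted p = 9.43e-04) and without WT replicate 1 of day 14 (adjusted p = 0.00143). In the edgeR fit of all 12 libraries, which sorted the groups above, Ifit1 passed too (adjusted p = 0.0110). Ifit3, which stabilises the IFIT1 protein in human cells, stood at 56.8, 52.4 and 53.7 CPM in KO libraries and 1.01, 0.672 and 0.674 CPM in WT libraries at day 1 (log2 fold change 6.13 ± 0.14 SE, adjusted p = 2.36e-12). By day 14 it had reached 184, 219 and 272 CPM in KO libraries and 143, 153 and 119 CPM in WT libraries (log2 fold change 0.69 ± 0.15 SE, adjusted p = 0.00517), every KO library above every WT library. Ifit2 had a smaller excess in KO, with 97.2, 90.2 and 103 CPM in KO libraries and 35.8, 32.2 and 34.1 CPM in WT libraries at day 1 (log2 fold change 1.52 ± 0.07 SE, adjusted p = 1.85e-09). At day 14 its groups overlapped, at 109, 102 and 122 CPM in KO libraries and 128, 109 and 101 CPM in WT libraries (log2 fold change -0.04 ± 0.11 SE, adjusted p = 0.815).

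ISG15 is a ubiquitin-like modifier that UBA7 activates, UBE2L6 carries and HERC6 (in the mouse) or TRIM25 attaches, and that USP18 removes. At day 1, 4 of these 6 genes were higher and 1 lower in KO, and at day 14, 3 were higher and 2 lower. Isg15 stood at 45.8, 46.0 and 40.8 CPM in KO libraries and 3.82, 2.83 and 2.93 CPM in WT libraries at day 1 (log2 fold change 3.80 ± 0.12 SE, adjusted p = 5.44e-11). At day 14 the groups overlapped, at 104, 133 and 133 CPM in KO libraries and 128, 99.3 and 79.0 CPM in WT libraries (log2 fold change 0.26 ± 0.17 SE, adjusted p = 0.238). Without WT replicate 1 of day 14, the highest WT library, Isg15 was called higher in KO (adjusted p = 0.00197). Usp18, whose product also shuts off IFNAR2 signalling, had the largest excess of KO over WT of all members at day 1, with 29.6, 31.1 and 20.2 CPM in KO libraries and 0.210, 0.0354 and 0.198 CPM in WT libraries (log2 fold change 7.52 ± 0.31 SE, adjusted p = 4.11e-10). By day 14 Usp18 was lower in KO, at 30.1, 42.1 and 45.8 CPM in KO libraries and 110.1, 81.0 and 69.5 CPM in WT libraries (log2 fold change -1.16 ± 0.20 SE, adjusted p = 0.00144). The WT libraries of day 14 thus held the highest Usp18 values of all groups.

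The enzymes that activate, carry and attach ISG15 differed in direction, and Trim25 alone of them went as Usp18 did. Herc6 was higher in KO by nearly the same log2 amount at both days, 1.94 ± 0.16 at day 1 and 1.92 ± 0.13 at day 14 (adjusted p = 3.21e-07 and 9.94e-06), and rose between the days in both genotypes. Uba7 was not called at day 1, at 3.77, 3.78 and 3.41 CPM in KO libraries and 3.06, 3.36 and 3.09 CPM in WT libraries (log2 fold change 0.21 ± 0.19 SE, adjusted p = 0.354), although those groups do not overlap. Its day 14 values were 27.9, 33.2 and 39.7 CPM in KO libraries and 6.20, 12.5 and 13.7 CPM in WT libraries (log2 fold change 1.63 ± 0.27 SE, adjusted p = 0.00122), every KO library above every WT library. Ube2l6 was lower in KO at day 1 (log2 fold change -0.81 ± 0.15 SE, adjusted p = 5.26e-04) and higher at day 14 (log2 fold change 0.56 ± 0.19 SE, adjusted p = 0.0400). The second call was fragile, since the groups overlap and it was lost when libraries were scaled by totals alone (adjusted p = 0.0688) and without any 1 of 5 libraries (adjusted p = 0.0530 to 0.143). Trim25, which in humans also ubiquitinates the sensor RIG-I, stood at 62.0, 69.0 and 54.6 CPM in KO libraries and 26.3, 24.6 and 26.1 CPM in WT libraries at day 1 (log2 fold change 1.28 ± 0.09 SE, adjusted p = 6.39e-08). The day 14 libraries held 63.9, 74.1 and 83.1 CPM in KO libraries and 85.5, 93.3 and 96.8 CPM in WT libraries (log2 fold change -0.33 ± 0.11 SE, adjusted p = 0.0379). That small difference missed the threshold without any 1 of 4 libraries (adjusted p = 0.0915 to 0.150).

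The dynamin-like MX proteins trap viral nucleocapsids, and the immunity-related GTPases of the mouse attack vacuoles that hold microbes. All 7 members were higher in KO at day 1, and at day 14, 5 were higher, with Mx2 and Irgm1 not called. Iigp1, an effector GTPase of this family, stood at 2.94, 2.28 and 1.90 CPM in KO libraries and 0.126, 0 and 0 CPM in WT libraries at day 1. With 3 counts over the WT libraries, the ratio of counts was 60.7-fold, with an exact 95% interval of 20.3 to 298 for counting error only. At day 14 Iigp1 stood at 74.3, 100.3 and 113 CPM in KO libraries and 31.7, 15.9 and 20.5 CPM in WT libraries (log2 fold change 2.06 ± 0.25 SE, adjusted p = 2.00e-04), every KO library above every WT library. Irgm1, which keeps the effector GTPases inactive on the cell's own membranes, stood at 70.7, 63.5 and 55.7 CPM in KO libraries and 17.2, 13.9 and 16.4 CPM in WT libraries at day 1 (log2 fold change 2.01 ± 0.11 SE, adjusted p = 4.30e-09). At day 14 its groups overlapped, at 113, 133 and 149 CPM in KO libraries and 125, 114 and 99.4 CPM in WT libraries (log2 fold change 0.21 ± 0.12 SE, adjusted p = 0.187), and it was called higher only without WT replicate 1 (adjusted p = 0.0213). Mx1 stood at 31.1, 35.6 and 45.4 CPM in KO libraries and 10.5, 6.07 and 7.42 CPM in WT libraries at day 14, and its log2 fold change of 2.20 ± 0.22 was the largest increase among the members at that day (adjusted p = 6.97e-05). Mx2 was not called at day 14 (log2 fold change 0.32 ± 0.14 SE, adjusted p = 0.0840), though its groups do not overlap, and passed without WT replicate 1 (adjusted p = 0.0237) or without KO replicate 1 (adjusted p = 0.0483). The neighbours Igtp and Irgm2 (Irgm2 is a regulator like Irgm1) were higher at both days, by log2 fold changes of 4.44 ± 0.32 and 3.82 ± 0.26 at day 1 and 1.30 ± 0.19 and 1.02 ± 0.21 at day 14.

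Several enzymes that act on nucleotides or RNA changed direction between the days. At day 1, 5 of 6 were higher in KO and Znfx1 was not called, and at day 14, 2 were higher and 4 lower. Rsad2 encodes viperin, which makes a chain-terminating nucleotide, and its neighbour Cmpk2 encodes a nucleotide kinase that supplies it. Rsad2 stood at 68.2, 59.8 and 74.3 CPM in KO libraries and 3.69, 3.40 and 2.70 CPM in WT libraries at day 1 (log2 fold change 4.38 ± 0.13 SE, adjusted p = 2.10e-11). On day 14 it measured 40.0, 47.5 and 57.1 CPM in KO libraries and 127, 101 and 102 CPM in WT libraries (log2 fold change -1.20 ± 0.15 SE, adjusted p = 2.30e-04), with every KO library below every WT library. Cmpk2 did the same, at 11.9, 11.7 and 6.68 CPM in KO libraries and 0.0839, 0.212 and 0.0793 CPM in WT libraries at day 1 (log2 fold change 6.24 ± 0.38 SE, adjusted p = 1.79e-08). At day 14 Cmpk2 stood at 11.6, 13.3 and 16.3 CPM in KO libraries and 37.4, 21.9 and 20.5 CPM in WT libraries (log2 fold change -0.96 ± 0.24 SE, adjusted p = 0.0102), a call that was lost without KO replicate 1 (adjusted p = 0.0560).

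Ddx60, a helicase that aids RNA sensing, stood at 13.0, 15.7 and 12.5 CPM in KO libraries and 0.0419, 0.106 and 0.198 CPM in WT libraries at day 1 (log2 fold change 6.82 ± 0.29 SE, adjusted p = 5.08e-10). At day 14 it stood at 13.5, 17.0 and 18.2 CPM in KO libraries and 47.7, 32.9 and 25.9 CPM in WT libraries (log2 fold change -1.14 ± 0.22 SE, adjusted p = 0.00272). The KO values of day 14 lay close to those of day 1, whereas the WT values stood near 0 at day 1 and were the highest group at day 14. Isg20, an exonuclease of single-stranded RNA, had 28.3, 21.5 and 26.2 CPM in KO libraries and 21.5, 21.5 and 21.0 CPM in WT libraries at day 1 (log2 fold change 0.26 ± 0.10 SE, adjusted p = 0.0471). That call was lost with DESeq2 (adjusted p = 0.0555), with no filter (adjusted p = 0.0745) and without any 1 of 5 libraries (adjusted p = 0.0748 to 0.210). The day 14 difference was plain, with 11.5, 14.3 and 11.8 CPM in KO libraries and 29.9, 28.0 and 32.5 CPM in WT libraries (log2 fold change -1.28 ± 0.13 SE, adjusted p = 9.19e-05), and KO at day 14 was the lowest group. Helz2, a helicase with nuclease domains, was higher in KO at both days by a small amount. It stood at 61.0, 78.4 and 57.7 CPM in KO libraries and 52.2, 53.7 and 53.1 CPM in WT libraries at day 1 (log2 fold change 0.32 ± 0.10 SE, adjusted p = 0.0132), and at 142, 188 and 187 CPM in KO libraries and 109.9, 139.9 and 120.2 CPM in WT libraries at day 14 (log2 fold change 0.47 ± 0.13 SE, adjusted p = 0.0186). Both calls were weak, since leaving out WT replicate 1 took away the first (adjusted p = 0.0545) and leaving out KO replicate 2, KO replicate 3 or WT replicate 3 the second (adjusted p = 0.0868, 0.0888 and 0.0545). Znfx1, an RNA-binding helicase at mitochondria, was not called at day 1 (log2 fold change 0.12 ± 0.07 SE, adjusted p = 0.173) except with scaling by totals alone (adjusted p = 0.0132), and was higher at day 14 (log2 fold change 1.12 ± 0.12 SE, adjusted p = 1.37e-04).

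ADP-ribosylating enzymes and the ubiquitin ligase DTX3L, which pairs with PARP9, were higher in KO at day 1 in 4 of 4 members. At day 14, 3 were higher and 1 lower. Parp14 stood at 14.9, 15.3 and 10.8 CPM in KO libraries and 2.47, 1.88 and 2.06 CPM in WT libraries at day 1 (log2 fold change 2.69 ± 0.18 SE, adjusted p = 5.56e-08). By day 14 it had reached 127, 150.4 and 164 CPM in KO libraries and 38.7, 34.4 and 28.3 CPM in WT libraries (log2 fold change 2.11 ± 0.14 SE, adjusted p = 7.90e-06). Parp14, Dtx3l and Parp9 are neighbours on chromosome 16, and all 3 were higher in KO at both days, with Dtx3l at 1.31 ± 0.13 and 1.41 ± 0.11 and Parp9 at 1.11 ± 0.13 and 1.35 ± 0.15 on the log2 scale. Parp12, an antiviral ADP-ribosyltransferase that lies elsewhere, took the opposite course. It stood at 12.8, 14 and 10.1 CPM in KO libraries and 8.01, 7.43 and 7.06 CPM in WT libraries at day 1 (log2 fold change 0.72 ± 0.14 SE, adjusted p = 7.26e-04). Its day 14 values were 4.20, 5.15 and 3.72 CPM in KO libraries and 25.2, 20.0 and 16.8 CPM in WT libraries (log2 fold change -2.26 ± 0.20 SE, adjusted p = 4.12e-05). This was the most negative log2 fold change of KO over WT among the members at day 14, and the KO values lay below all other groups.

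Of the TRIM ubiquitin ligases and PML, 2 of 3 were higher and 1 lower in KO at day 1, and 3 of 3 were higher at day 14. Trim30a, a mouse regulator of innate signalling, stood at 48.9, 43.7 and 49.0 CPM in KO libraries and 0.629, 0.814 and 0.635 CPM in WT libraries at day 1 (log2 fold change 6.08 ± 0.14 SE, adjusted p = 2.81e-12). The day 14 libraries held 152, 167 and 189 CPM in KO libraries and 116, 72.5 and 82.6 CPM in WT libraries (log2 fold change 0.89 ± 0.17 SE, adjusted p = 0.00229). Trim21, a cytosolic antibody receptor, was higher by 2.19 ± 0.17 at day 1 and 0.69 ± 0.15 at day 14 on the log2 scale. Pml, the scaffold of nuclear bodies, was the exception of the class. It was lower in KO at day 1, at 50.4, 60.6 and 45.8 CPM in KO libraries and 122, 116 and 131 CPM in WT libraries (log2 fold change -1.23 ± 0.09 SE, adjusted p = 1.12e-07). At day 14 it was higher in KO, at 119, 151 and 151 CPM in KO libraries and 64.3, 94.2 and 81.0 CPM in WT libraries (log2 fold change 0.80 ± 0.15 SE, adjusted p = 0.00249). KO at day 14 and WT at day 1 were the high groups of Pml and were not separated by the test (log2 fold change 0.19 ± 0.13 SE, adjusted p = 0.262).

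Membrane and secreted products were higher in KO at day 1 in 5 of 6 members, and at day 14, 4 were higher and 2 lower. Bst2 encodes tetherin, which holds budding virions at the cell surface. It stood at 139, 136 and 84.7 CPM in KO libraries and 10.4, 9.77 and 9.91 CPM in WT libraries at day 1 (log2 fold change 3.59 ± 0.17 SE, adjusted p = 1.32e-09). On day 14 it measured 203, 239.7 and 244 CPM in KO libraries and 391, 352 and 302 CPM in WT libraries (log2 fold change -0.62 ± 0.12 SE, adjusted p = 0.00234), with no overlap. Lgals3bp, a secreted glycoprotein that binds galectins, stood at 103, 103 and 75.4 CPM in KO libraries and 49.2, 44.5 and 45.2 CPM in WT libraries at day 1 (log2 fold change 1.03 ± 0.11 SE, adjusted p = 2.60e-06). At day 14 it stood at 437, 526 and 551 CPM in KO libraries and 236, 215 and 209 CPM in WT libraries (log2 fold change 1.18 ± 0.11 SE, adjusted p = 3.90e-05). Ifi27 and Ifi27l2a are neighbours on chromosome 12 that encode small hydrophobic proteins. Ifi27 stood at 154, 167 and 140.2 CPM in KO libraries and 45.5, 44.1 and 45.6 CPM in WT libraries at day 1 (log2 fold change 1.78 ± 0.07 SE, adjusted p = 3.15e-10), and at 98.3, 82.2 and 73.5 CPM in KO libraries and 108, 126 and 121 CPM in WT libraries at day 14 (log2 fold change -0.50 ± 0.12 SE, adjusted p = 0.00972). Ifi27l2a was higher in KO at both days, by 2.18 ± 0.16 at day 1 and 0.98 ± 0.12 at day 14. Rtp4, a receptor chaperone, was higher by 2.68 ± 0.12 at day 1 and by 0.38 ± 0.09 at day 14, a second call that was lost without KO replicate 3 (adjusted p = 0.0719). Tor3a, an ATPase of the endoplasmic reticulum, was not called at day 1 (log2 fold change -0.14 ± 0.06 SE, adjusted p = 0.0601), where it was called lower without KO replicate 2 (adjusted p = 0.0191), and was higher at day 14 (log2 fold change 0.72 ± 0.10 SE, adjusted p = 3.64e-04).

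The last class joins effectors of growth, cell death and other or less settled roles. Of its 8 tested genes, 6 were higher and 1 lower in KO at day 1, and at day 14, 2 were higher and 1 lower. Ifi44, a cytoplasmic protein, stood at 69.6, 74.9 and 54.9 CPM in KO libraries and 0.755, 0.708 and 0.436 CPM in WT libraries at day 1 (log2 fold change 6.71 ± 0.18 SE, adjusted p = 1.41e-11). At day 14 the groups overlapped through WT replicate 1, at 187, 252 and 277 CPM in KO libraries and 212, 148 and 149 CPM in WT libraries (log2 fold change 0.48 ± 0.18 SE, adjusted p = 0.0511). The Ifi44 call appeared with DESeq2 (adjusted p = 0.0272), with no filter (adjusted p = 9.93e-05), without KO replicate 1 (adjusted p = 0.0250) and without WT replicate 1 (adjusted p = 1.07e-04). It also appeared in the edgeR fit of all 12 libraries that sorted the groups (adjusted p = 0.0181). Xaf1, which opposes the apoptosis inhibitor XIAP, stood at 49.5, 53.1 and 43.4 CPM in KO libraries and 4.40, 5.10 and 4.40 CPM in WT libraries at day 1 (log2 fold change 3.39 ± 0.11 SE, adjusted p = 6.69e-11). By day 14 it had reached 89.3, 115 and 120.1 CPM in KO libraries and 122, 134 and 109.8 CPM in WT libraries, which overlap (log2 fold change -0.19 ± 0.13 SE, adjusted p = 0.262).

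Rnf213, a large ubiquitin ligase known from moyamoya disease of human brain arteries, was not called at day 1, where the groups overlapped at 152, 176 and 117 CPM in KO libraries and 147, 139 and 152 CPM in WT libraries (log2 fold change 0.03 ± 0.11 SE, adjusted p = 0.817). Its sign there turned without KO replicate 2 or WT replicate 2, and it was called higher without KO replicate 3 (adjusted p = 0.0216). Its day 14 values were 399, 519 and 489 CPM in KO libraries and 267, 206 and 167 CPM in WT libraries (log2 fold change 1.12 ± 0.17 SE, adjusted p = 7.25e-04). The Schlafen genes Slfn2 and Slfn5, regulators of growth and quiescence, lie with 2 coding genes between them. Slfn2 stood at 28.1, 22.4 and 23.7 CPM in KO libraries and 9.56, 9.27 and 10.2 CPM in WT libraries at day 1 (log2 fold change 1.36 ± 0.11 SE, adjusted p = 3.07e-07), and at 31.4, 27.9 and 31.7 CPM in KO libraries and 53.5, 78.6 and 69.7 CPM in WT libraries at day 14 (log2 fold change -1.16 ± 0.15 SE, adjusted p = 2.88e-04). Slfn5 was scarce, at 0.111, 0.111 and 0.195 CPM in KO libraries and 1.05, 1.17 and 1.19 CPM in WT libraries at day 1 (log2 fold change -2.95 ± 0.47 SE, adjusted p = 1.24e-04). The day 14 groups of Slfn5 overlapped, at 0.426, 0.212 and 0.755 CPM in KO libraries and 0.800, 0.977 and 0.544 CPM in WT libraries (log2 fold change -0.68 ± 0.50 SE, adjusted p = 0.301). Samd9l, a growth suppressor, was higher by 1.66 ± 0.11 and 1.13 ± 0.21 at day 1 and day 14. Ifi35 and Nmi, which bind each other, were higher at day 1, by 0.66 ± 0.11 and 1.73 ± 0.33, and overlapped at day 14, where Nmi was called higher only without WT replicate 1 (adjusted p = 0.0272).

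**Figure D3:**
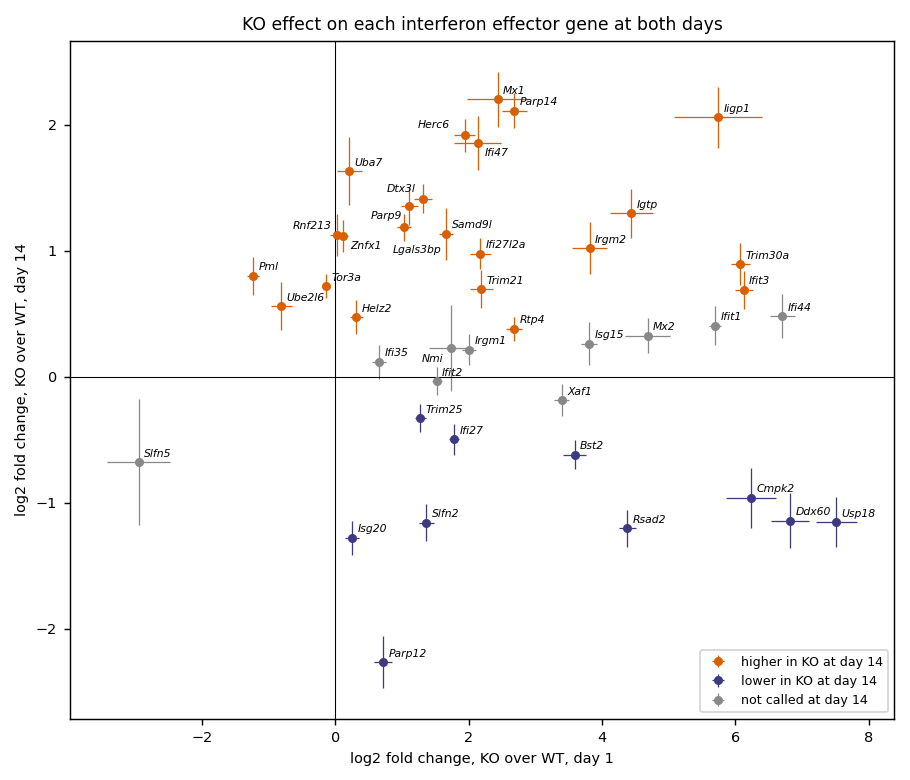
Log2 fold change of KO over WT for 43 members at day 1 (horizontal axis) and at day 14 (vertical axis), with standard errors as bars and the day 14 call as colour. Usp18, Ddx60, Cmpk2 and Rsad2 lie far to the right and below 0 at day 14, Iigp1, Igtp and Parp14 lie above 0 on both axes, and the fitted day 1 value of Iigp1 rests on 3 WT counts.

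The separate fits of the days, which share no library, placed 17 members as higher in KO at both days, a joint call that 2.84% of the 14503 genes tested at both days shared. Among them were Ifit3, Mx1, Parp14, Herc6, Iigp1 and Trim30a. Higher at day 1 and lower at day 14 were 10 members (13.8% of all genes), namely Usp18, Rsad2, Cmpk2, Ddx60, Bst2, Isg20, Parp12, Trim25, Slfn2 and Ifi27. Pml and Ube2l6 were lower at day 1 and higher at day 14, and 4 members, Rnf213, Uba7, Znfx1 and Tor3a, were called at day 14 alone, higher. Called higher at day 1 with no call at day 14 were 9 members (14.8% of all genes), and Slfn5 was lower at day 1 with no call at day 14. For the joint calls of Pml and Ube2l6, of the 4 members called at day 14 alone and of Slfn5, the share of all genes was not computed.

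The test of the change in the KO effect between the days, day 14 minus day 1 over all 12 libraries, called 34 of the 43 members, 7 upward and 27 downward, where 60.1% of all genes were called (29.5% upward, 30.5% downward). By at least 2-fold, 6 members changed upward, against 16.4% of all genes, and 26 downward, against 19.4%. The members' median was -1.54 and that of all genes -0.01 on the log2 scale. Usp18 had the deepest drop (-8.64 ± 0.44, adjusted p = 3.18e-10), followed by Ddx60 (-7.93 ± 0.43), Cmpk2 (-7.17 ± 0.52) and Ifi44 (-6.20 ± 0.32). Upward were Slfn5, Pml, Uba7, Ube2l6, Rnf213, Znfx1 and Tor3a. Without a call were 9 members, among them Herc6 (-0.00 ± 0.14), Dtx3l (0.12 ± 0.18), Parp9 (0.26 ± 0.19), Mx1 (-0.21 ± 0.46) and Parp14 (-0.55 ± 0.23, adjusted p = 0.0533). A p above the threshold does not show that the effect was the same at both days.

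In WT cells nearly every effector was higher at day 14 than at day 1. Of 43 members, 40 were higher and 1, Pml, lower at day 14, where 51.9% of all genes were called (25.8% higher, 26.1% lower). At least 2-fold higher were 36 members, against 11.8% of all genes, and Pml fell by less than 2-fold, where 8.04% of all genes fell by more. The median was 2.83 for the members and 0.00 for all genes. Usp18 rose by 9.19 ± 0.36, Ddx60 by 8.18 ± 0.35, Ifi44 by 8.05 ± 0.26, Cmpk2 by 7.62 ± 0.42, Ifit3 by 7.46 ± 0.20 and Trim30a by 7.01 ± 0.21 on the log2 scale. For Iigp1, against 3 counts at day 1, the ratio of counts was 604-fold with an exact 95% interval of 206 to 2931. Slfn5 and Tor3a were not called.

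In KO cells, which began higher, 33 members were higher and 4 lower at day 14 than at day 1, where 54.8% of all genes were called (26.9% higher, 27.9% lower). At least 2-fold higher were 29 members, against 10.2% of all genes, and at least 2-fold lower were 2, against 12.2%. The members' median was 1.57 and that of all genes -0.01. The immunity-related and MX GTPases were higher in 7 of 7 members, led by Iigp1 (5.34 ± 0.29) and Mx1 (4.58 ± 0.27). Parp14 (3.43 ± 0.15), Uba7 (3.20 ± 0.24) and Herc6 (2.95 ± 0.14) rose as well. Lower at day 14 were Parp12 (-1.50 ± 0.19), Isg20 (-1.02 ± 0.12), Ifi27 (-0.86 ± 0.10) and Rsad2 (-0.48 ± 0.14). Ddx60, Cmpk2, Slfn2, Ifit2, Trim25 and Nmi were not called. Both day contrasts use the libraries of the KO and WT comparisons above and are given as their own values.

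KO at day 1 was set against WT at day 14 because ranking the 4 groups needed this contrast. These groups were also the closest over all genes, which bears on the low share of all genes called. Here 9.78% of all genes were called (3.89% higher, 5.89% lower), whereas 38 of the 43 members were lower in KO at day 1 and 1, Ifi27, was higher. At least 2-fold lower were 24 members, against 1.8% of all genes, and Ifi27 was under 2-fold, where 0.351% of all genes were at least 2-fold higher. The median log2 fold change was -1.21 for the members and -0.00 for all genes. Iigp1 (-3.27 ± 0.29), Slfn5 (-2.39 ± 0.55) and Mx1 (-2.36 ± 0.28) differed most. Not called were Ifit2, Isg20, Rnf213 and Nmi. Leaving out KO replicate 3 of day 1 left 31 members lower, and the call of Ifi27 (log2 fold change 0.38 ± 0.10 SE, adjusted p = 0.0310) was lost without any 1 of 7 libraries. The number of calls over all genes, 1562, moved to 5538 without WT replicate 1 of day 14 and to 610 without WT replicate 2, with 38 members lower without replicate 1. KO at day 14 against WT at day 1 had 39 members higher and 3 lower, where 50.7% of all genes were called (24.6% higher, 26.1% lower), with a median of 3.69. At least 2-fold higher were 37 members, against 8.24% of all genes, and at least 2-fold lower was 1, against 9.03%. Lower in KO at day 14 were Isg20, Parp12 and Slfn5, and Pml was not called.

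Interferon transcripts themselves were found mainly in WT cells at day 14. Of 21 interferon ligands, 4 were listed at day 1 and 12 at day 14. Ifnb1, interferon beta, had 4, 2 and 0 counts in KO libraries and 0, 2 and 0 counts in WT libraries at day 1, where it was not tested. At day 14 it had 1, 0 and 3 counts in KO libraries and 76, 120 and 113 counts in WT libraries (log2 fold change -6.08 ± 0.60 SE, adjusted p = 6.62e-05). Ifna4 was listed at day 14, at 0 counts in the 3 KO libraries and 12, 17 and 22 counts in WT libraries, at least 15.3-fold lower in KO against a floor of 3 counts over the group. Ifna2, Ifna5 and Ifna14, further alpha interferons, had 0 counts over the KO libraries and 11, 7 and 6 counts over the WT libraries at day 14. All 7 Ifna5 counts lay in WT replicate 1 and all 6 Ifna14 counts in WT replicate 2, so that without that library each is at 0. Reads can be shared within this family of near-identical genes. All listed ligands together had 9 counts in KO and 4 in WT at day 1, and 11 in KO and 390 in WT at day 14. Of the effectors, 11 were highest in WT at day 14, 8 of them clearly, and 30 in KO at day 14, 24 of them clearly. Any link between ligand transcripts and effector levels was not tested.

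Receptors and their kinases were lower in KO at day 1 and higher at day 14. Of 9 genes, 8 were tested, and all 8 were lower in KO at day 1 and higher in KO at day 14. Over all genes, 30.2% were lower at day 1 and 22.7% were higher at day 14. The share of all genes with both of these calls was not computed. Ifnar1 stood at 67.6, 75.6 and 65.8 CPM in KO libraries and 107, 105 and 107 CPM in WT libraries at day 1 (log2 fold change -0.60 ± 0.06 SE, adjusted p = 3.89e-06), and at 147, 139 and 144 CPM in KO libraries and 67.8, 65.2 and 73.0 CPM in WT libraries at day 14 (log2 fold change 1.05 ± 0.08 SE, adjusted p = 2.30e-05). Ifnar2 stood at 18.8, 20.6 and 20.1 CPM in KO libraries and 32.3, 30.2 and 31.4 CPM in WT libraries at day 1 (log2 fold change -0.65 ± 0.08 SE, adjusted p = 2.07e-05). At day 14 Ifnar2 stood at 72.9, 65.6 and 68.1 CPM in KO libraries and 16.7, 20.0 and 22.4 CPM in WT libraries (log2 fold change 1.79 ± 0.13 SE, adjusted p = 1.13e-05). KO at day 14 was thus the group with the most receptor transcript, with no overlap with the other groups in Ifnar1 or Ifnar2. For Ifngr1, Ifngr2, Il10rb, Jak1, Jak2 and Tyk2 the log2 fold changes ran from -1.10 to -0.35 at day 1 and from 0.48 to 1.69 at day 14. For KO at day 1 over WT at day 14 the 8 log2 fold changes ran from -0.18 to 0.10, with adjusted p from 0.312 to 0.966.

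Irf9 was higher in KO at both days, and Stat2 was not called at either. Irf9 stood at 39.1, 49.6 and 33.5 CPM in KO libraries and 12.8, 13.0 and 13.0 CPM in WT libraries at day 1 (log2 fold change 1.67 ± 0.13 SE, adjusted p = 1.54e-07), and at 78.1, 80.5 and 93.7 CPM in KO libraries and 66.7, 63.7 and 63.3 CPM in WT libraries at day 14 (log2 fold change 0.37 ± 0.10 SE, adjusted p = 0.0124). The order of groups of Irf9 was that of most effectors, with KO at day 14 highest and WT at day 1 lowest. Among 16 feedback inhibitors of JAK and STAT signalling, 6 were higher and 7 lower in KO at day 1, and 6 higher and 4 lower at day 14, beside 30.6% higher and 30.2% lower over all genes at day 1 and 22.7% and 23.7% at day 14. Socs3, an inhibitor of cytokine receptors, had log2 fold changes of -2.13 ± 0.07 at day 1 and 0.95 ± 0.24 at day 14, and Cish, an inhibitor of STAT5 signalling, 2.81 ± 0.42 and -2.14 ± 0.50. Socs1, the SOCS protein known for blocking interferon receptors, was higher at day 1 (0.68 ± 0.18) and not called at day 14 (-0.55 ± 0.23).

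**Figure D4:**
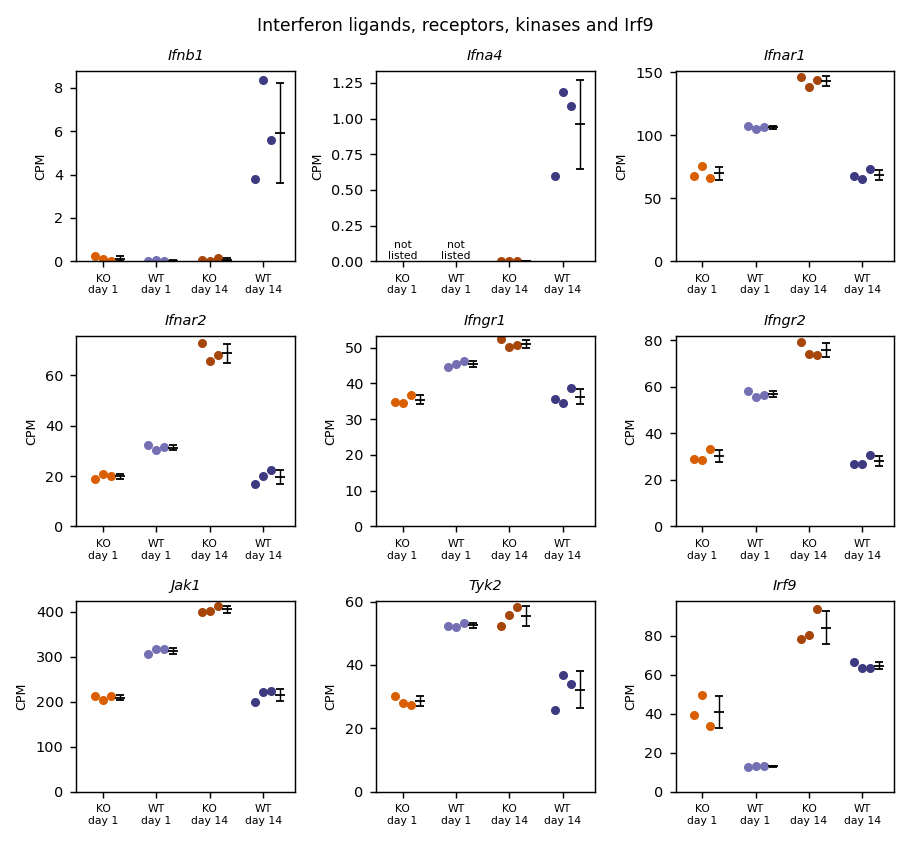
CPM of 9 signalling genes in every library, by group from left to right as KO day 1, WT day 1, KO day 14 and WT day 14, with mean and SD of 3 libraries as a cross bar. Ifnb1 is near 0 outside WT at day 14, and Ifna4 is at 0 in KO at day 14 and was not listed at day 1. The receptors and kinases are high in KO at day 14 and in WT at day 1, while Irf9 is highest in KO at day 14.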

How the data were processed

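The deposited values are raw counts of reads per gene name, in 1 table a day, and all are whole numbers. Per the submitters' processing notes the genome build is mm9. Aligner, counter, annotation and strandedness were not given in the sources used here. Reads of overlapping or near-identical genes (the Ifit, Irgm, Slfn and Ifna families among them) may therefore be split between genes. Per the labels' protocols, TRIzol was used for RNA and a NEBNext Ultra kit for libraries. Column names gave the genotype (CTR was taken to mean WT) and replicate, and the table the day. Lines that repeat a name with identical counts were removed (43 at day 1, 53 at day 14). The members and the lists of ligands, receptors, inhibitors and cell type markers were chosen with earlier results of these data known.

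Counts were tested in R 4.3.3 with edgeR 4.0.16 (TMM scaling, filterByExpr, quasi-likelihood F test, p adjusted by Benjamini-Hochberg over every tested gene, threshold 0.05). The comparison of KO and WT within a day used that day's 6 libraries, over 15368 and 14905 genes. All other contrasts, the CPM and the sorting by highest group came from 1 fit of 12 libraries over 15973 genes. Standard errors were derived as log2 fold change divided by the root of F. A member was clearly highest or lowest where its adjusted p against the next group was below 0.05. Each test was tested on simulated counts. Values in every library are given for 25 members, those with the highest mean or the largest day 1 change in each class of function and those whose highest group was not KO at day 14; other members named were added for their place in a class or their change of call, after their values were seen.

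Results were recomputed with DESeq2-like (RLE) size factors, library totals alone, no filter, DESeq2 1.42.0, the replicate number as a block, all 12 libraries in 1 fit, and leaving out each library. Libraries of a group were further apart than sampling noise (chi-square per gene 2.89 to 49.9). Counting intervals and floors cover counting error only.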

Additional observations from a re-analysis of the deposited data

Results flagged for a closer look

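The KO effect (log2 fold change of KO over WT) differed between day 14 and day 1, by the edgeR test of that difference with Benjamini-Hochberg adjustment, in 34 members. Each value below is the log2 effect at day 14 minus that at day 1, and adjusted p ran from 1.83e-11 to 0.0211. Over all genes 60.1% were called in this test, and 3 libraries stand behind each of the 4 groups.

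For the IFIT genes the differences were Ifit1 -5.27, Ifit2 -1.54 and Ifit3 -5.41. Ifit1 and Ifit3 stood far higher in KO than in WT at day 1 and high in both genotypes at day 14. From day 1 to day 14 the mean of Ifit1 was 69.6-fold higher in WT and 1.80-fold higher in KO. The mean of Ifit3 was 176.5-fold higher in WT and 4.14-fold higher in KO. Among ISG15 and its enzymes they were Isg15 -3.52, Usp18 -8.64 and Trim25 -1.59 downward, and Uba7 1.45 and Ube2l6 1.39 upward. The GTPases had Mx2 -4.33, Iigp1 -3.65, Igtp -3.12, Irgm1 -1.78 and Irgm2 -2.77, and the value of Iigp1 rests on 3 counts in WT at day 1. The nucleotide and RNA enzymes had Rsad2 -5.56, Cmpk2 -7.17, Isg20 -1.52 and Ddx60 -7.93, and Znfx1 stood apart at 1.02. By the tests of single days, KO exceeded WT in Rsad2, Cmpk2, Ddx60 and Usp18 at day 1 and was below WT at day 14.

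Parp12 had -2.96, while its class mates Parp9, Parp14 and Dtx3l were not called in this test. Trim21 and Trim30a had -1.48 and -5.16, and Pml, lower in KO at day 1 and higher at day 14, had 2.05. Membrane and secreted products had Bst2 -4.19, Ifi27 -2.25, Ifi27l2a -1.18 and Rtp4 -2.28, and Tor3a 0.88. The remaining effectors had Ifi44 -6.20, Ifi35 -0.52, Xaf1 -3.56, Slfn2 -2.50 and Nmi -1.49 downward, and Rnf213 1.11 and Slfn5 2.29 upward.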

How the results depend on the processing

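With size factors of the DESeq2 kind, library totals alone, no filter, DESeq2, the replicate block and (for KO against WT) all 12 libraries in 1 fit, every count of members called kept within 1.5 times its value. With the replicate block, KO against WT had 35 members higher and 3 lower at day 1 and 23 and 10 at day 14, and the call of Isg20 at day 1 was lost (adjusted p = 0.0577). The numbers did not pair the samples, with correlations of deviations from -0.0167 to -0.0108 at day 1 and from -0.0252 to 0.0603 at day 14. Leaving out each library in turn, the counts of members higher and lower were 34 to 36 and 3 to 4 for KO against WT at day 1, 20 to 29 and 8 to 10 at day 14, 6 to 7 and 25 to 29 for the change of the KO effect, 39 to 41 and 1 to 1 for day 14 against day 1 in WT, 31 to 37 and 4 to 4 in KO, 0 to 1 and 31 to 38 for KO at day 1 against WT at day 14, and 39 to 40 and 2 to 3 for KO at day 14 against WT at day 1. Members clearly highest numbered 0 to 1 in KO at day 1, 0 to 0 in WT at day 1, 21 to 26 in KO at day 14 and 7 to 8 in WT at day 14. The lowest, 20 higher at day 14, came without KO replicate 3 and the highest, 29, without WT replicate 1. The count of 1 became 0, for Ifi27 as higher and as clearly highest in KO at day 1, without KO replicate 1 or 2 of day 1, any WT library of day 1, or WT replicate 2 or 3 of day 14. Single members without a call turned sign: Rnf213 at day 1, -0.11 without KO replicate 2 and -0.01 without WT replicate 2, in a range of -0.11 to 0.19, and Ifit2 at day 14, 0.014 without KO replicate 2 and 0.045 without WT replicate 1, in a range of -0.12 to 0.045. The cause was not tested. Scaling by totals alone moved the share of all called genes that were higher in KO to 61.7% at day 1, in place of 50.4%, and to 42.5% at day 14, in place of 49.0%. Over all genes, calls for KO against WT at day 14 were 6918, and 9209 without WT replicate 1. Depth limits Epsti1, Slfn5, the ligands, and in WT at day 1 Iigp1, Usp18, Ddx60 and Cmpk2, the last 3 with 11, 9 and 10 counts over the group.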

Other observations

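Markers of other cell types the cultures could hold were summed in each library, in CPM. The 6 endothelial markers summed to 4.62 to 6.49 in KO and 13.6 to 16.1 in WT at day 1, and to 7.06 to 8.33 in KO and 7.95 to 10.2 in WT at day 14. Most of the day 1 sum came from Cdh5, which averaged 3.70 in KO against 14.1 in WT, while Vwf averaged 0.901 in KO against 0.383 in WT. Of 2 endothelial markers tested at day 1, 1 was higher and 1 lower in KO, beside 30.6% and 30.2% of all genes. The 6 adventitial fibroblast markers summed to 43.4 to 66.8 in KO and 101 to 107 in WT at day 1, and to 90.3 to 97.8 in KO and 44.7 to 65.6 in WT at day 14. Most of the fibroblast sum came from Pdgfra and Dcn, and at day 14 Pdgfra averaged 75.8 in KO against 33.3 in WT while Dcn averaged 8.48 in KO against 23.3 in WT. Of the fibroblast markers tested, 4 of 4 were lower in KO at day 1, and 2 were higher and 1 lower at day 14. Over all genes, 30.2% were lower at day 1, and 22.7% were higher and 23.7% lower at day 14. The 9 receptors and kinases summed to 461 to 467 in KO and 751 to 758 in WT at day 1, and to 951 to 974 in KO and 442 to 508 in WT at day 14. The 4 Schwann cell markers summed to 2.39 to 3.66 in KO and 1.20 to 1.97 in WT at day 1, and to 0.917 to 2.07 in KO and 2.08 to 2.93 in WT at day 14. Of 3 plasmacytoid dendritic cell markers, 1 was listed at both days, Tcf4, which other cells also express, at 77.4 to 82.7 in KO and 134 to 146 in WT at day 1, and 122 to 131 in KO and 74.9 to 85.0 in WT at day 14. The part of these cell types in the effector results was not tested.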
